A study of Mus musculus with 12 samples.

Results

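The gamma subunits of heterotrimeric G proteins were described here as a gene family around Gng4. The 10 members, Gng2, Gng3, Gng4, Gng5, Gng7, Gng8, Gng10, Gng11, Gng12 and Gng13, were the rows of the deposited gene table that carry these symbols, of 23253 genes in all. Gng4 was chosen from these same counts, for its difference between siRNA-labelled stroke and stroke libraries. Its values in every comparison that uses either of those groups are therefore given as a description, with no test, and the question asked of the other members was whether they shared its pattern.

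RNA was sequenced from 12 libraries labelled as cortical neurons sorted by flow cytometry from C57BL/6 mice, with 3 libraries per group in 4 groups. These were adult stroke mice labelled with GDF10 siRNA, adult stroke mice, P4 control animals and adult control animals, none with a labelled transgene. Stroke was made by shining cold light for 15 min on the cortex once the light-sensitive dye rose bengal had been given, and the lesion was 2 mm wide. The labels give the same adult growth text for all groups and do not say what P4 stands for, how long after stroke tissue was taken, or whether the libraries of a group came from separate animals, so p-values measure only the spread between these libraries. Animals per library and the sorting marker are not given in the labels. GDF10 is a secreted TGF-beta family protein. Its gene had 8, 7 and 1 counts in siRNA-labelled stroke libraries 1, 2 and 3 and 0, 5 and 0 counts in stroke libraries 4, 5 and 6, which does not settle whether the treatment lowered it, and the group is called siRNA-labelled for that reason.

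A G protein is made of an alpha, a beta and a gamma subunit. The beta and gamma subunits stay together as a dimer, which leaves the alpha subunit when a receptor is activated and then acts on ion channels, adenylyl cyclases, phospholipase C beta and a class of PI3 kinase. The gamma subunit carries a lipid at its end that holds the dimer at the membrane, and the choice of gamma subunit affects which receptors and effectors the dimer works with. In the brain, Gng2 and Gng3 are widely used neuronal gamma subunits, Gng4 is another brain subunit, and Gng7 is best known from striatal neurons, where it works with the alpha subunit encoded by Gnal. Gng8 and Gng13 are known from sensory neurons of smell and taste, and Gng5, Gng10, Gng11 and Gng12 are found in many cell types, Gng12 also in glia.

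The ends of the coding sequences show how alike the members are where the lipid is attached. The last 15 coding bases, from GENCODE M21 transcripts on GRCm38, all begin with the codon of the residue that receives the lipid. Capitals mark the codon just before the stop, which takes part in setting the kind of lipid. Gng11 is known to receive a farnesyl group and the others a geranylgeranyl group. All members but Gng11 had a codon there that begins with CT or TT.
Gng4: tgcaccatcCTCtaa
Gng2: tgcgccatcCTTtaa
Gng3: tgtgcgctcCTCtga
Gng7: tgcataattCTCtag
Gng8: tgcaccctgCTCtga
Gng10: tgtgctctaCTTtga
Gng12: tgcatcatcTTAtag
Gng13: tgcaccatcCTAtga
Gng5: tgctcctttTTGtag
Gng11: tgtgtcattTCAtaa
Over their whole transcripts the members were distinct at the length of the reads. No word of 69 bases, the read length, was shared between any pair of members. The longest run of bases that Gng4 shared with another member was 29, with Gng3, followed by 21 with Gng2. Reads of Gng4 could thus be told from those of its paralogs, within the limits of an aligner and a counting tool that no source used here names.

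Other genes overlapped some members. Of the words of Gng10, 71.0% also lay in Gm20503, annotated on the same strand, and 41.4% of those of Gng13 lay in Chtf18 on the opposite strand. For Gng3, 20.95% lay in Bscl2 and for Gng2, 18.2% in Gm48283, both on the opposite strand. The strand setting is not given either, so counts of these 4 members are uncertain to that extent. For Gng4 the share was 0.397%. Bscl2 was called in none of the 6 comparisons, and its log2 fold change between P4 and adult control was 0.18.

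The libraries held 10517638 to 48633350 counts. The correlation of log2 levels within a group was 0.681 to 0.989, and the lowest values were those of adult control 3, which had the lowest total, with the other adult controls. The gene entry of the 45S ribosomal RNA precursor, Rn45s, took 2.08 to 2.72% of counts in siRNA-labelled library 3, in all stroke libraries and in adult control 2, and 0.00984 to 0.427% in the other 7. Although the libraries are labelled as sorted neurons, 12 oligodendrocyte markers summed to 63139 to 111132 CPM (counts at a common library size, scaled with TMM factors) in siRNA-labelled stroke, 52319 to 71187 CPM in stroke, 107 to 352 CPM in P4 and 34006 to 113250 CPM in adult control. The 12 pan-neuronal markers summed to 1748 to 2700 CPM in siRNA-labelled stroke, 1572 to 2264 CPM in stroke, 5844 to 8722 CPM in P4 and 1932 to 5740 CPM in adult control, with no member of either list at 0 throughout a group. Of 10 endothelial markers, Cldn5, a defining one, was at 0 in every siRNA-labelled stroke and adult control library. It was at most 1.03 CPM in the stroke and P4 libraries. The 10 markers still summed to 10.25 to 25.5 CPM in siRNA-labelled stroke and 20.6 to 37.3 CPM in adult control. These sums were 4.11 to 31.5 CPM in stroke and 7.95 to 19.3 CPM in P4. A 0 for Cldn5 thus does not mean that endothelial RNA was absent. In bulk RNA, fewer cells of a type and less RNA per cell cannot be told apart.

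Gng4 (chromosome 13, 13784059 to 13827895, plus strand, mm10) was high in stroke and low in siRNA-labelled stroke and in adult control. Its level was 23.7, 17.4 and 28.0 CPM in siRNA-labelled stroke, 144, 137 and 219 CPM in stroke, 58.1, 79.7 and 77.0 CPM in P4, and 16.4, 13.0 and 20.3 CPM in adult control. Ordered by level, stroke was highest, P4 next, and siRNA-labelled stroke and adult control lowest. Neither stroke nor P4 overlapped with any other group, while the ranges of the 2 lowest groups overlapped. These levels rested on 300 to 971 counts per library in siRNA-labelled stroke, 4038 to 4281 in stroke, 1215 to 4021 in P4 and 178 to 523 in adult control.

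**Figure D1:**
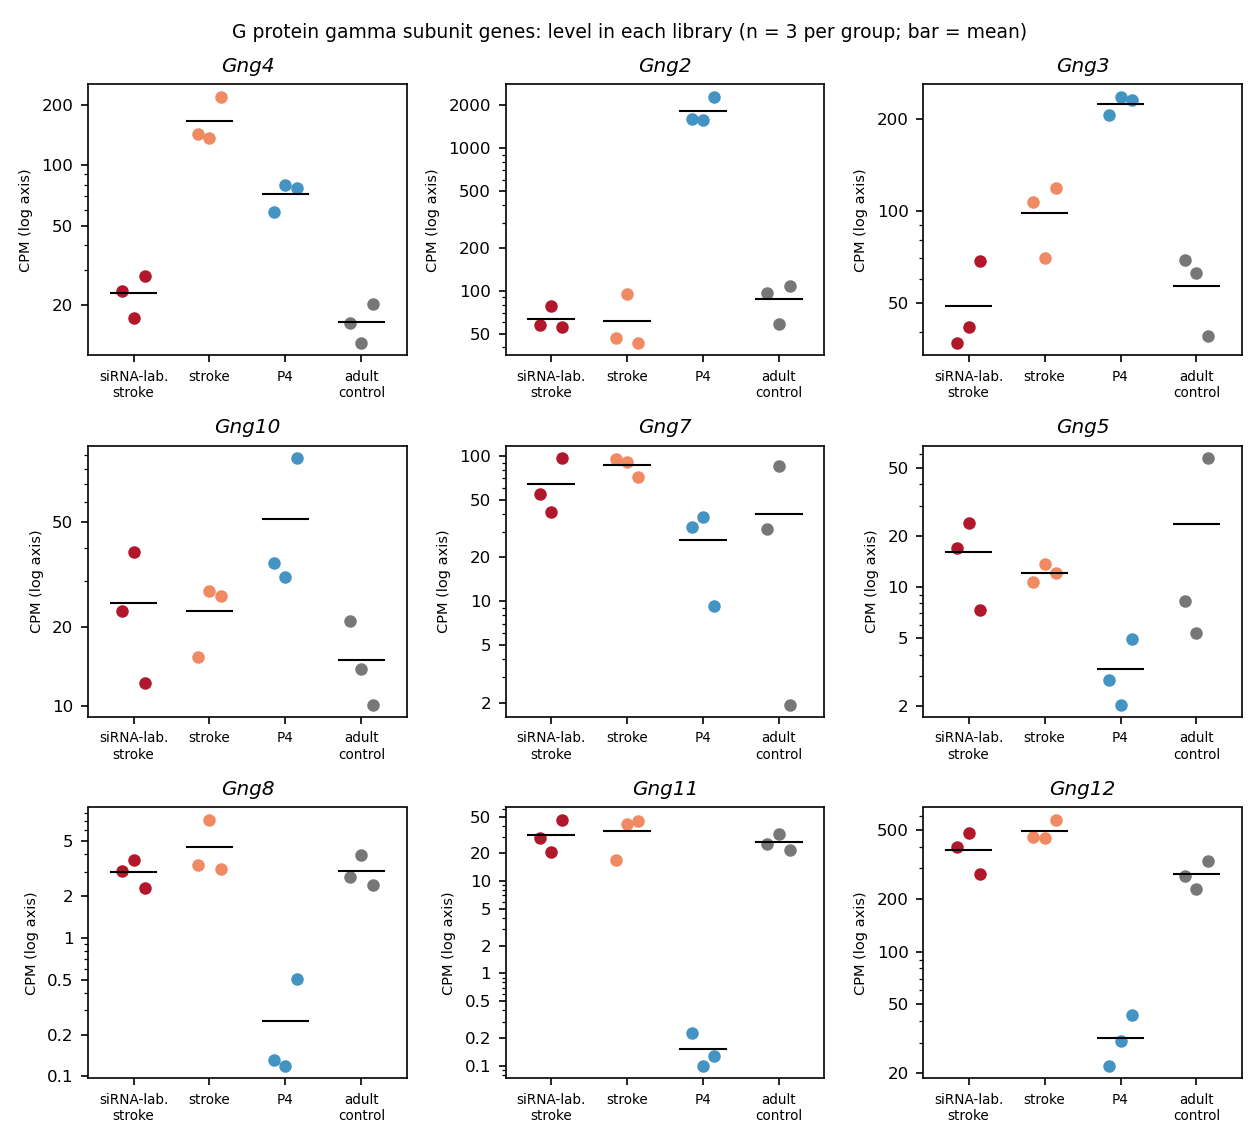
Level of the 9 tested gamma subunit genes in CPM on a log axis, 1 point per library and a bar for the mean of the 3 libraries of a group. Gng4 is high in stroke and intermediate in P4, Gng2 and Gng3 are highest in P4, and Gng8, Gng11 and Gng12 are lowest in P4.

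The log2 fold change of Gng4 was -2.85 (SE 0.37) in siRNA-labelled stroke against stroke and 3.33 (SE 0.37) in stroke against adult control. It was 0.48 (SE 0.34) in siRNA-labelled stroke against adult control. It was 1.22 (SE 0.35) in stroke against P4 and -1.64 (SE 0.35) in siRNA-labelled stroke against P4. With any 1 library left out, the first of these lay between -3.03 and -2.61. The libraries high in Rn45s were siRNA-labelled library 3, with 28.0 CPM of Gng4, all stroke libraries and adult control 2, with 13.0 CPM. The authors' deposited table gave Gng4 a log2 fold change of -2.86 in the first comparison. All of these come from the values that chose Gng4 and give no support to its difference.

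P4 against adult control shares no library with the comparison that chose Gng4, and there Gng4 was higher in P4. It averaged 71.6 ± 11.8 CPM in P4 and 16.6 ± 3.66 CPM in adult control (SD, n = 3 each). The log2 fold change was 2.12 (SE 0.36), with an adjusted p of 0.000728 by edgeR's quasi-likelihood test, adjusted by Benjamini-Hochberg over the 17909 genes tested. All 3 P4 libraries lay above all adult controls, and the call held when any 1 library was left out.

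Of the other members, 8 were tested, and Gng13 did not pass the filter on low counts. Gng13 had 2, 0 and 12 counts in siRNA-labelled stroke, 0, 4 and 0 in stroke, 1, 6 and 1 in P4, and 5, 6 and 4 in adult control. Differences in Gng13 were not detectable at this depth.

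In siRNA-labelled stroke against stroke, none of the 8 paralogs was called. Over all genes 0.00558% were called, and since Gng4 was chosen on this comparison nothing is read from that share. At an unadjusted p under 0.05 there was 1 paralog, Gng3, of 1319 genes, and DESeq2 called 0 paralogs. The median log2 fold change of the 8 paralogs was -0.23, against 0.04 over all genes tested.

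Gng3 (chromosome 19, 8836929 to 8839246, minus strand) was the paralog nearest to Gng4 in this comparison. Its level was 36.9, 41.6 and 68.3 CPM in siRNA-labelled stroke and 107, 70.0 and 119 CPM in stroke. The groups did not overlap, but siRNA-labelled library 3 came close to stroke 5, and 15.9% of all genes tested showed no overlap. The log2 fold change was -1.01 (SE 0.35, adjusted p = 0.594 by the edgeR test).

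The other paralogs overlapped between siRNA-labelled stroke and stroke. Gng12, which had the most counts of the family in both groups, was at 399, 476 and 278 CPM in siRNA-labelled stroke and 453, 447 and 570 CPM in stroke, a log2 difference of -0.35 (SE 0.32, adjusted p = 0.832 by edgeR). Gng2 was at 57.2, 78.2 and 55.6 CPM in siRNA-labelled stroke and at 46.8, 94.9 and 42.9 CPM in stroke. Its groups lay within each other's spread, a log2 difference of 0.05 (SE 0.36, adjusted p = 0.982 by edgeR). For the remaining 5, Gng5, Gng7, Gng8, Gng10 and Gng11, log2 fold changes lay between -0.60 and 0.39, with SE of 0.49 to 0.88.

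**Figure D2:**
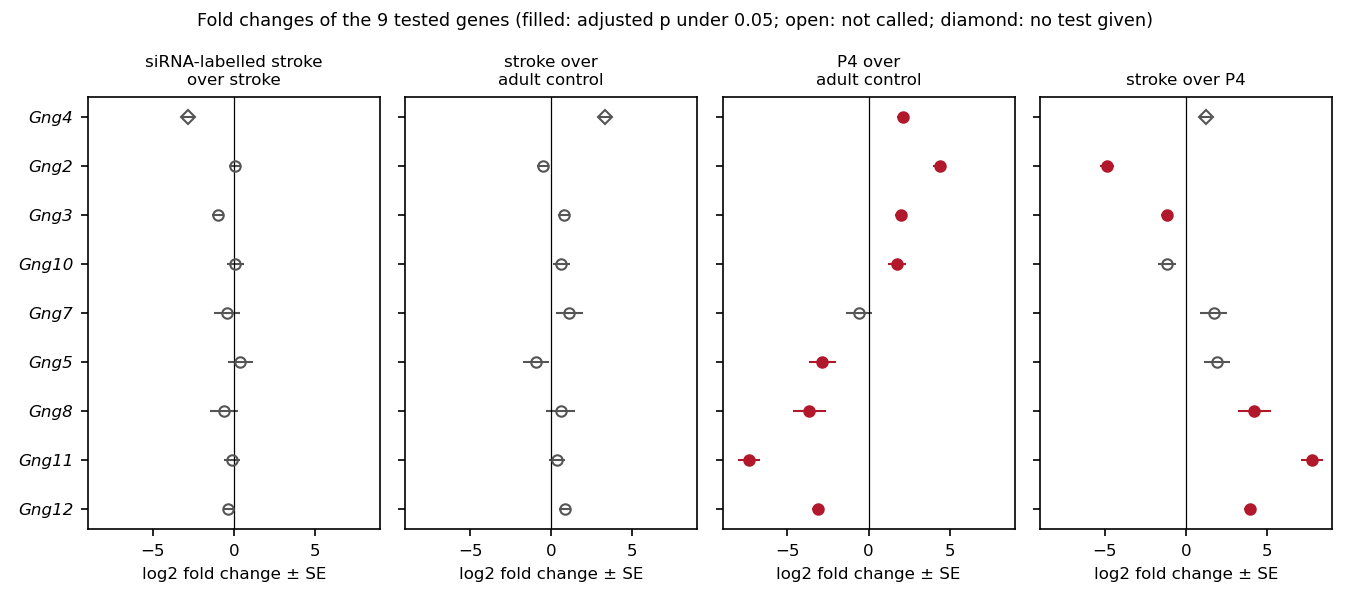
Log2 fold change with its SE for the 9 tested members in 4 of the 6 comparisons. Filled circles passed an adjusted p of 0.05, open circles did not, and open diamonds mark Gng4 where no test is given. In the first comparison all paralogs are open circles, with Gng3 at -1.01 farthest from 0, and 7 of 8 are filled in P4 over adult control.

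In stroke against adult control, none of the 8 paralogs was called, against 0.704% of all genes, and DESeq2 called 0. At an unadjusted p under 0.05 there were 2, Gng3 and Gng12, of 2852 genes. Gng12 was at 453, 447 and 570 CPM in stroke and 272, 230 and 331 CPM in adult control, a log2 difference of 0.82 (SE 0.32, adjusted p = 0.237 by edgeR). Gng3 was at 107, 70.0 and 119 CPM in stroke and 69.2, 62.5 and 39.0 CPM in adult control, a difference of 0.79 (SE 0.35, adjusted p = 0.290 by edgeR). Neither gene overlapped between its groups, as was the case for 20% of all genes. The paralogs had a median log2 fold change of 0.60 and all genes tested one of -0.08.

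Beside this, 12 neuroblast and newborn interneuron markers summed to 131 to 313 CPM in siRNA-labelled stroke, 376 to 468 CPM in stroke and 131 to 621 CPM in adult control. The 8 oligodendrocyte precursor markers summed to 1475 to 2185 CPM in siRNA-labelled stroke, 2850 to 4248 CPM in stroke and 1144 to 2870 CPM in adult control. Both marker sums were higher in every stroke library than in every siRNA-labelled library, in the direction of Gng4 in that comparison. Microglia markers went the other way without overlap, at 1330 to 2813 CPM in siRNA-labelled stroke and 354 to 1094 CPM in stroke. The other marker sums overlapped between siRNA-labelled stroke and stroke. Within the precursor list, Gpr17 was at 243 to 736 CPM in siRNA-labelled stroke and 1148 to 1765 CPM in stroke. Pdgfra overlapped, at 272 to 400 CPM and 291 to 449 CPM in the same order. The precursor sum also split with Rn45s, at 2185 to 4248 CPM in the libraries high in Rn45s and 132 to 1769 CPM in the others. Adult control 2 had 2870 CPM, above stroke 5 with 2850 CPM, although its Gng4 was at 13.0 CPM. The part of any of these in the result was not tested.

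In siRNA-labelled stroke against adult control, 0 of 8 paralogs were called by edgeR and 0 by DESeq2, against 0.117% of all genes. None had an unadjusted p under 0.05, where 1497 of all genes did. The log2 fold changes of the paralogs lay between -0.55 for Gng5 and 0.71 for Gng10, and all 8 overlapped between the groups, where 10.8% of all genes did not. These 3 comparisons share libraries with each other and are not independent.

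In P4 against adult control 7 of 8 paralogs were called, with 3 higher and 4 lower. Over all genes 16.8% were called, 6.32% higher and 10.4% lower. Gng2, Gng3 and Gng10 were higher in P4, as Gng4 was, and Gng5, Gng8, Gng11 and Gng12 were lower. Gng7 did not pass. The paralogs had a median log2 fold change of -1.72, against -0.16 over all genes. In a fit of only these 6 libraries 4 of 8 were called, and Gng2, Gng3, Gng11 and Gng12 were called in every alternative run. The share of all genes called in that fit was not counted.

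Gng2 (chromosome 14, 19872558 to 19977825, minus strand) had the largest rise of the members. It was at 1591, 1567 and 2294 CPM in P4 and at 96.2, 58.6 and 108 CPM in adult control. Every P4 library was far above any adult control, and the log2 fold change was 4.38 (SE 0.41, adjusted p = 4.16e-06 by edgeR). Gng3 was at 206, 236 and 231 CPM in P4 and at 69.2, 62.5 and 39.0 CPM in adult control, a log2 difference of 1.98 (SE 0.36, adjusted p = 0.00134 by edgeR). Its P4 libraries lay close together and far above the adult controls.

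Gng10 (chromosome 4, 59035156 to 59041899, plus strand) was at 35.2, 31.1 and 87.7 CPM in P4 and at 21.1, 13.9 and 10.15 CPM in adult control. The groups did not overlap, as for 32.1% of all genes, but P4 6 was far above the other P4 libraries. The log2 fold change was 1.77 (SE 0.55, adjusted p = 0.0386 by edgeR). Without P4 6 it was 1.15 (adjusted p = 0.178), and the call was also lost without P4 4, adult control 2 or adult control 3 (adjusted p = 0.0541, 0.0882 and 0.0837) and with Rn45s class as a term (adjusted p = 0.0809).

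Gng11 (chromosome 6, 4003987 to 4008445, plus strand), the farnesylated member, had the largest fall of the members. It was at 0.225, 0.0991 and 0.127 CPM in P4 and at 25.5, 32.1 and 21.9 CPM in adult control. These P4 levels rested on 12, 5 and 2 counts, against 643, 1292 and 192 counts in adult control, so the gene was near the limit of detection in P4. The log2 fold change was -7.39 (SE 0.67, adjusted p = 3.19e-06 by edgeR). Gng12 (chromosome 6, 66896397 to 67021361, plus strand) was at 22.1, 30.7 and 43.2 CPM in P4 and at 272, 230 and 331 CPM in adult control, a log2 difference of -3.12 (SE 0.34, adjusted p = 1.74e-05 by edgeR). Both genes fell in all 3 P4 libraries relative to every adult control.

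Gng8 (chromosome 7, 16891737 to 16895451, plus strand) was at 0.131, 0.119 and 0.507 CPM in P4 and at 2.74, 3.97 and 2.40 CPM in adult control. It had 6 to 8 counts per P4 library and 21 to 160 per adult control, without overlap in CPM. Its log2 fold change was -3.64 (SE 0.99, adjusted p = 0.0202 by edgeR), and the call was lost without P4 4, P4 5 or adult control 2 (adjusted p = 0.116, 0.117 and 0.0507). Gng5 (chromosome 3, 146499836 to 146505543, plus strand) was at 2.84, 2.04 and 4.94 CPM in P4 and at 8.29, 5.37 and 56.9 CPM in adult control. Adult control 3 stood far above the other adult controls, and P4 6 lay just under adult control 2. The log2 fold change of -2.84 (SE 0.83, adjusted p = 0.0283 by edgeR) became -1.07 (adjusted p = 0.265) without adult control 3, and the call was also lost without P4 4 or P4 5 (adjusted p = 0.105 and 0.117).

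Other features moved with P4. Oligodendrocyte markers were far lower there, as given above. Astrocyte markers summed to 338 to 627 CPM in P4 and 3754 to 5471 CPM in adult control, microglia markers to 19.2 to 40.8 CPM in P4 and 677 to 894 CPM in adult control, and oligodendrocyte precursor markers to 132 to 267 CPM in P4 and 1144 to 2870 CPM in adult control. Neuroblast and newborn interneuron markers summed to 7482 to 13508 CPM in P4 and 131 to 621 CPM in adult control. Xist, an RNA of the silenced X chromosome in females, lay at 2045 to 3649 CPM in P4 and 3.23 to 193 CPM in adult control. Ddx3y, a gene of the Y chromosome, was at 0.0562, 33.5 and 148 CPM in P4 4, 5 and 6 and at 109 to 474 CPM in adult control. The P4 libraries thus differed from each other in this RNA, and P4 was not uniformly female by it. Rn45s took 0.00984 to 0.349% of counts in P4. The part of these in the results was not tested. Library numbers were 4 to 6 for P4 and stroke and 1 to 3 for the other groups. A batch that follows them cannot be told apart from the group here. The same holds for siRNA-labelled stroke against stroke or P4 and for stroke against adult control. Gng4 was higher in both groups numbered 4 to 6 than in the others.

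The upstream windows of Gng4 and Gng2, both higher in P4 than in adult control, are shown from the RefSeq promoter table for GRCm38.p6 because Gng4 names the family's pattern and Gng2 had its largest rise. Each is 250 bases before a listed transcription start. That of Gng4 is chr13:13783809-13784058 on the plus strand and that of Gng2 is chr14:19976694-19976943 on the minus strand, which lies inside the annotated span of Gng2. Capitals mark a match to the AP-1 motif TGANTCA.
Gng4: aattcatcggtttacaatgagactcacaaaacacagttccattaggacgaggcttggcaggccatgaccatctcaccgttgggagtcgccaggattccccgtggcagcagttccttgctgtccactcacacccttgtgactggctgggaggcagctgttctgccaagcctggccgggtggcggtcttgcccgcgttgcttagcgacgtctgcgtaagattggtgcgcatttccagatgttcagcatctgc
Gng2: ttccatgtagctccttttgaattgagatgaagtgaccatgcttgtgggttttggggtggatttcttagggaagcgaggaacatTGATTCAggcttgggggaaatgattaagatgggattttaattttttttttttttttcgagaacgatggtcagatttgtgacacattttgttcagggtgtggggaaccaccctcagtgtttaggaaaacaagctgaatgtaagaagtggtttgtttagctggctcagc
The Gng4 window held 13 CpG dinucleotides and the Gng2 window 3, against a median of 6 over 32841 promoters. Motifs were searched on both strands. The SMAD motif GTCTAGAC occurs in 0.167% of all promoters and the CRE motif TGACGTCA in 1.55%. The AP-1 motif occurs in 6.75%, the core of the SP1 site (GGGCGG) in 32.7% and the TBP motif TATAAA in 12.4%. The Gng4 window printed held none of them, a second Gng4 window in the table held 2 SP1 cores and no other match, and the Gng2 window held 1 AP-1 match. The window of Gng3 held none and 2 CpG dinucleotides, and that of Gng10 held 1 SP1 core and 18 CpG dinucleotides. A match is a description of the letters only.

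In stroke against P4, 5 of 8 paralogs were called, where 18.8% of all genes were (10.8% higher and 7.94% lower). Gng11 (log2 fold change 7.77), Gng8 (4.22) and Gng12 (3.94) were higher in stroke, and Gng2 (-4.88) and Gng3 (-1.19) lower, all with adjusted p of 0.027 or less by edgeR. In siRNA-labelled stroke against P4 the same 5 were called, where 19.6% of all genes were (11.6% higher and 8.05% lower). Gng11 (7.66), Gng8 (3.62) and Gng12 (3.59) were higher and Gng2 (-4.84) and Gng3 (-2.20) lower. Gng4, in contrast, was above P4 in stroke and below P4 in siRNA-labelled stroke. In fits of only the groups compared, 7 of 8 paralogs were called in stroke against P4, with Gng5 and Gng7 added. In siRNA-labelled stroke against P4 such a fit called 6, with Gng5 added. The share of all genes called in those fits was not counted, so the change in number is not read as a result about the family. These comparisons and the one with adult control share the P4 libraries.

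Some of these calls did not hold in every alternative run. In stroke against P4, that of Gng3 (adjusted p = 0.0270) was lost without stroke 5 (adjusted p = 0.136), stroke 6 (0.0510) or any 1 P4 library (0.0540 to 0.0852), and that of Gng8 without P4 4 or P4 5 (0.0599 and 0.0593) and with Rn45s class as a term (0.0811). In siRNA-labelled stroke against P4, that of Gng8 was lost without siRNA-labelled library 2 (0.0520), P4 4 (0.107) or P4 5 (0.108). By edgeR's test of any difference over the 4 groups, 5 of 8 paralogs were called, Gng2, Gng3, Gng8, Gng11 and Gng12, against 20.1% of all genes. Over the alternatives that count was 4 to 7, and Gng8 was among the genes that lost the call.

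Gng7 (chromosome 10, 80948624 to 81014925, minus strand) was called in none of the 6 comparisons in the fit over all libraries. In a fit of only stroke and P4 it was called (log2 fold change 1.72, adjusted p = 0.0217 by edgeR), against an adjusted p of 0.190 over all libraries. It was at 54.3, 41.0 and 96.3 CPM in siRNA-labelled stroke, 95.0, 91.2 and 71.9 CPM in stroke, 32.2, 37.8 and 9.25 CPM in P4, and 31.3, 85.8 and 1.94 CPM in adult control. Its values split with Rn45s. The 5 libraries high in Rn45s had 71.9 to 96.3 CPM and the other 7 had 1.94 to 54.3 CPM, without overlap. In the 2 groups that hold both kinds, siRNA-labelled library 3 and adult control 2 were above both of their group mates. Gng11 was also above both mates in both groups, and Gng2, Gng5 and Gng12 were below both in both. This split of the libraries was made after the data were seen. The share of all genes that split in this way was not counted. Gna12, an alpha subunit gene, split likewise (200 to 397 CPM in the libraries high in Rn45s, 5.83 to 113 CPM in the others). So did genes that are not G protein subunits, and the split was not particular to this family. Among them were Fntb, an enzyme gene of lipid attachment (20.0 to 32.5 and 4.33 to 15.9 CPM), and the oligodendrocyte marker Mbp (2510 to 3780 and 27.9 to 1767 CPM).

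**Figure D3:**
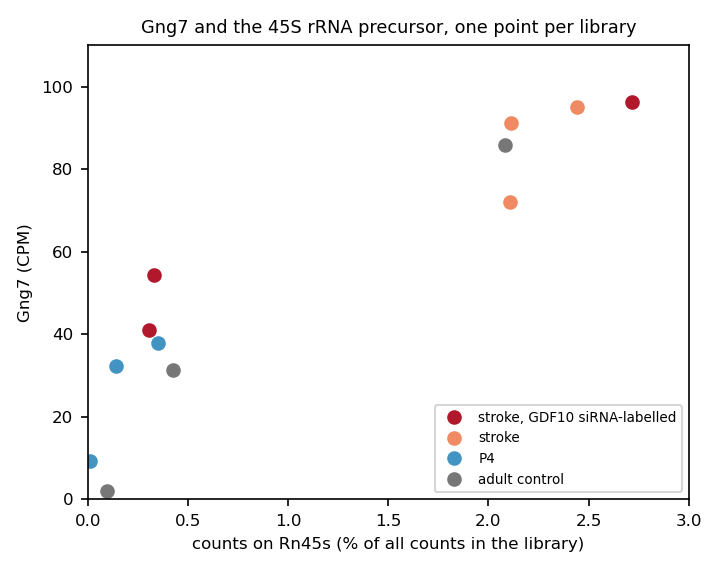
Level of Gng7 in CPM against the share of counts on Rn45s in percent, 1 point per library, coloured by group. The 5 libraries with high Rn45s lie at 71.9 to 96.3 CPM and the other 7 at 1.94 to 54.3 CPM.

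Per exon length, the make-up of the family differed between the groups. Levels as RPKM (CPM per kilobase of GENCODE exons) summed over the 10 members to 211 ± 12.1 in siRNA-labelled stroke, 313 ± 44.9 in stroke, 626 ± 122 in P4 and 180 ± 3.46 in adult control (SD, n = 3 each). Gng4 made up 2.33 to 3.98% of that sum in siRNA-labelled stroke, 13.7 to 18.1% in stroke, 3.01 to 4.22% in P4 and 2.20 to 3.39% in adult control. Its share was thus several times higher in each stroke library than in any other library, P4 included. In P4 the share of Gng4 was low although its level was not, since Gng2 made up 63.1 to 68.1% of the sum there. Without Gng4, the sums were 204 ± 13.1 RPKM in siRNA-labelled stroke, 263 ± 32.4 in stroke, 605 ± 121 in P4 and 175 ± 3.26 in adult control.

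Gng12 held the largest mean RPKM of any member in siRNA-labelled stroke (81.3 ± 21.1), stroke (104 ± 14.6) and adult control (58.8 ± 10.8). In P4 the order was another, with Gng2 (414 ± 94.0 RPKM) and Gng3 (137 ± 9.90 RPKM) on top and Gng12 at 6.76 ± 2.24 RPKM. In stroke, Gng4 at 49.9 ± 13.7 RPKM stood between Gng3 at 60.0 ± 15.5 and Gng11 at 37.6 ± 16.8, and differed from each by less than its own SD. In siRNA-labelled stroke Gng4 was at 6.90 ± 1.61 RPKM and in adult control at 4.96 ± 1.10 RPKM, where only Gng8 and Gng13 and, in siRNA-labelled stroke, Gng5 had lower means. RPKM depends on the transcript lengths assumed.

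**Figure D4:**
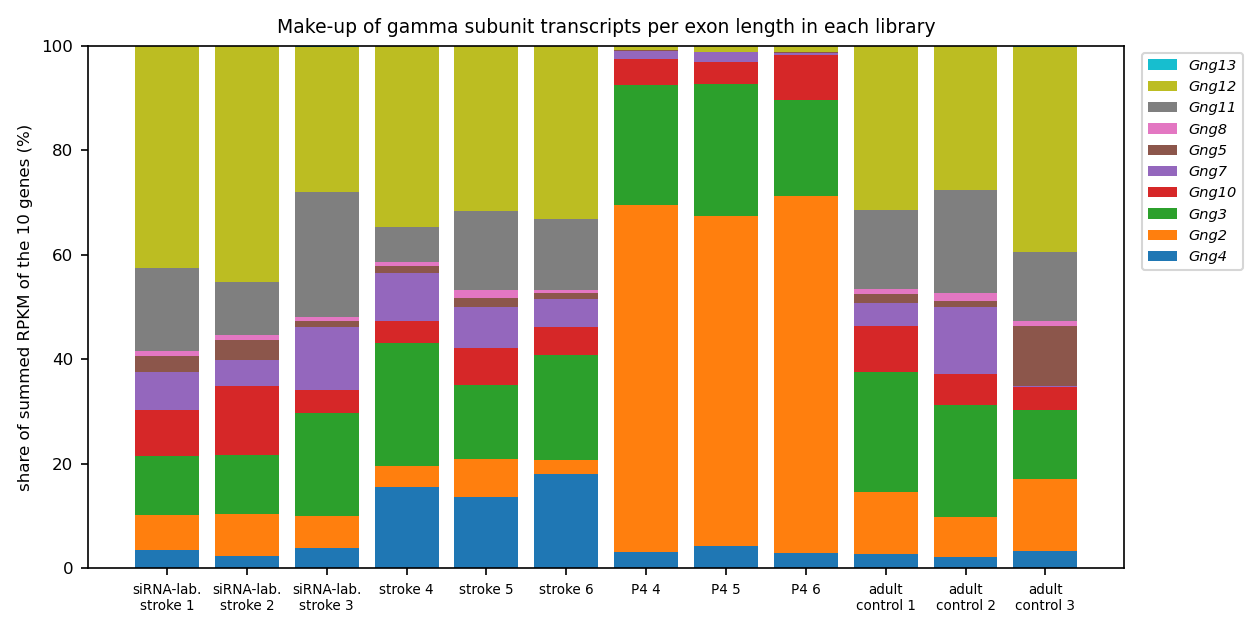
Share of each of the 10 members in the summed RPKM of the family, in percent, with 1 stacked bar per library. The Gng4 segment is 13.7 to 18.1% in stroke and at most 4.22% elsewhere, and the Gng2 segment fills over 60% of each P4 bar.

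Over the 12 libraries, the genes whose levels followed Gng4 most closely were not gamma subunits. Likeness was measured as the root mean square difference of log2 CPM, each gene centred on its own mean, among 10564 genes averaging 5 CPM or more. The closest were Cmpk2 (0.515), a mitochondrial nucleotide kinase induced by interferon, Frmd4a (0.536), a scaffold protein of cell polarity, and Sv2c (0.548), a synaptic vesicle glycoprotein. Kif15 (0.729), a mitotic kinesin, and Arhgap35 (0.763), a GTPase-activating protein, followed. The first 3 were among the closest 5 in all 14 alternative lists, Kif15 in 9 and Arhgap35 in 8. Gng3 was the nearest paralog, at rank 193 (1.07), then Gng10 at rank 1992 (1.32), and the other 6 were at rank 7594 or beyond. Gng8 averaged under 5 CPM and was not among the 10564 genes, so its rank is the place that its difference would take.

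Cmpk2 was at 19.7, 13.1 and 20.0 CPM in siRNA-labelled stroke, 81.0, 76.5 and 72.4 CPM in stroke, 21.3, 24.4 and 33.0 CPM in P4, and 4.32, 7.88 and 10.4 CPM in adult control. It was higher in stroke than in every other group without overlap. Its log2 fold change in siRNA-labelled stroke against stroke was -2.12, that of Frmd4a -1.92, that of Sv2c -1.98, that of Kif15 -1.31 and that of Arhgap35 -1.58. These genes were picked for likeness to Gng4, so the values are a description and no test is given.

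**Figure D5:**
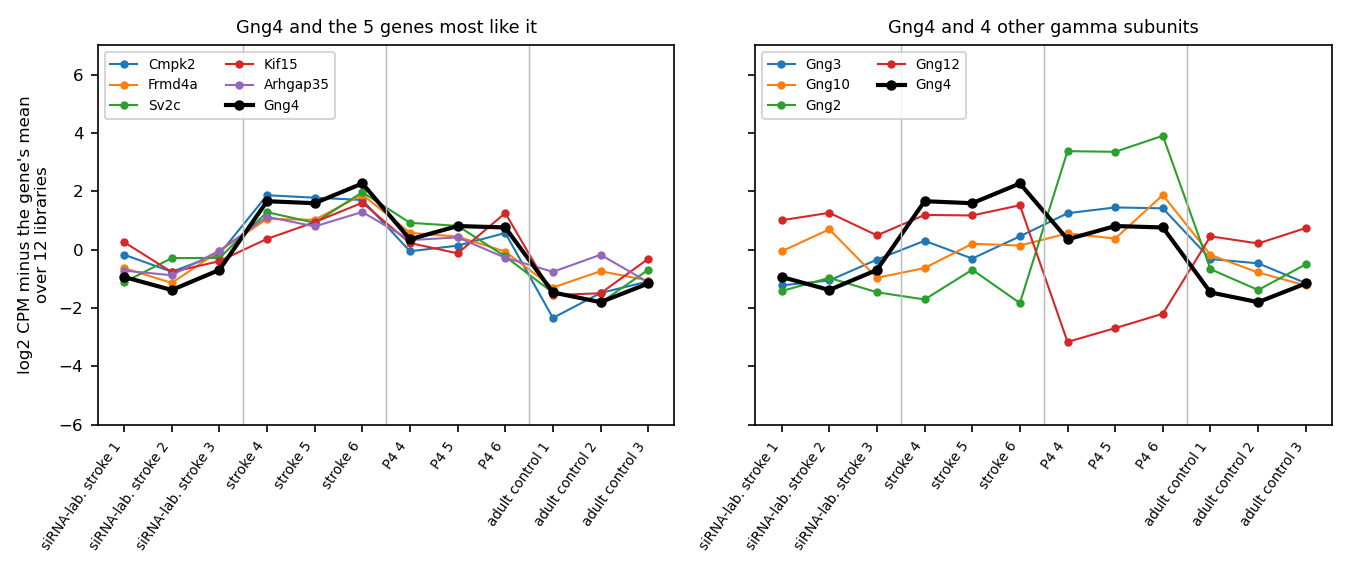
Log2 CPM minus the gene's mean over the 12 libraries, by library, for Gng4 in black with the 5 genes most like it at left and with 4 other gamma subunits at right. The 5 genes have their highest group mean in stroke, as Gng4 has, whereas Gng2 peaks and Gng12 dips in P4.

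The partners and effectors of gamma subunits were examined as lists of 62 genes, 61 of them tested. In siRNA-labelled stroke against stroke, in stroke against adult control and in siRNA-labelled stroke against adult control, edgeR called 0 of 61, neither higher nor lower. At an unadjusted p under 0.05 there were 6, 13 and 4 of them in that order, beside 1319, 2852 and 1497 of the 17909 genes tested. DESeq2 called 2 in siRNA-labelled stroke against stroke (Pik3cg and Gna14, both higher). It called 4 in stroke against adult control (Rgs7bp, Plcb4, Pik3r6 and Gna14, all lower). In siRNA-labelled stroke against adult control it called 1 (Pik3r5, higher). The share of all genes that DESeq2 called was not counted, so nothing is read from these numbers. Gna14 was at 1.39 to 3.22 CPM in siRNA-labelled stroke, 0 to 0.0690 CPM in stroke and 0.323 to 1.94 CPM in adult control. Pik3r6 was at 0 to 0.552 CPM in stroke and 1.49 to 10.9 CPM in adult control. Microglia markers summed to 1330 to 2813 CPM in siRNA-labelled stroke, 354 to 1094 CPM in stroke and 677 to 894 CPM in adult control, and their part in these calls was not tested. The 5 beta subunits had a median log2 fold change of -0.67 in siRNA-labelled stroke against stroke and 0.95 in stroke against adult control, beside 0.04 and -0.08 over all genes in the same order. Gnb1, a widely used beta subunit, averaged 328 ± 108 CPM in siRNA-labelled stroke, 598 ± 17.1 in stroke, and 270 ± 156 CPM in adult control (SD, n = 3 each).

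In P4 against adult control, 10 of 61 were higher and 3 lower, where 6.32% of all genes were higher and 10.4% lower. DESeq2 called 22 of the 61 there. These shares are those of edgeR, and the share of all genes that DESeq2 called was not counted, so nothing is read from the 22. Of 16 alpha subunits 5 were higher and 1 lower. Gnal, the olfactory and striatal stimulatory alpha subunit, averaged 607 ± 164 CPM in P4 and 63.7 ± 15.4 CPM in adult control, a log2 fold change of 3.25 (SE 0.37). Gnas, the general stimulatory one, was higher (1.39, SE 0.29), and Gna12, another alpha subunit, lower (-3.06, SE 0.81). Gna12 overlapped between the groups, at 5.83 to 18.1 CPM in P4 and 15.9 to 239 CPM in adult control. Of 5 beta subunits, Gnb1 (1.88) and Gnb4 (1.36) were higher. Among effectors, Adcy1, a calcium-stimulated adenylyl cyclase, was higher (2.30), as was Plcb1, a phospholipase (1.77). Of the R7 RGS proteins and their anchors, Rgs9 was higher (2.24) and the anchor Rgs7bp lower (-1.52). Rgs7bp overlapped too, at 30.8 to 79.7 CPM in P4 and 72.9 to 192 CPM in adult control. Of 6 enzymes that attach and process the lipid end, Zmpste24, a protease of that pathway, was lower (-1.93), with 27.6 ± 0.436 CPM in P4 and 105 ± 9.09 CPM in adult control.

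In stroke against P4, 6 of 61 were higher and 15 lower, where 10.8% of all genes were higher and 7.94% lower. Between siRNA-labelled stroke and P4, 8 were higher and 11 lower in siRNA-labelled stroke, where 11.6% of all genes were higher and 8.05% lower. In stroke Gna12 was higher (4.45) and Gnal lower (-3.37) than in P4. In siRNA-labelled stroke Gna12 was higher (3.897) and Gnal lower (-3.91) than in P4. Gna12 split with Rn45s, as given above, and the part of Rn45s in its values was not tested. Pik3cg, the PI3 kinase that beta-gamma dimers activate, averaged 54.6 ± 27.3 CPM in siRNA-labelled stroke and 6.61 ± 1.33 CPM in P4 (log2 fold change 3.05). Gngt2, the gamma subunit of cone transducin, averaged 6.23 ± 4.49 CPM in siRNA-labelled stroke and 0.137 ± 0.158 CPM in P4 (5.60, SE 1.67, adjusted p = 0.0276 by edgeR). Microglia markers summed to 1330 to 2813 CPM in siRNA-labelled stroke and 19.2 to 40.8 CPM in P4, and their part in these 2 results was not tested.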

How the data were processed

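The data were 12 RNA-seq libraries of 4 groups. Per the submitters' processing notes, CASAVA 1.8.2, edgeR and mm10 were used, and no source used here names the aligner, counting tool, annotation or strand setting. Per the labels' protocols, RNA was isolated with RNA-Microprep and amplified with Ovation RNA-seq System v2 before paired reads of 69 bp. The deposited table holds raw read counts per gene, which were tested here. Of the log2 ratios and adjusted p-values that the authors deposited beside them, a log2 ratio is quoted for Gng4. A further 30 columns of per-sample values in the deposited table were not used. The first P4 column bears the name P3 and was matched by its number.

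Genes were filtered with filterByExpr by group, scaled with TMM and fitted over all 12 libraries, 1 mean per group, with the quasi-likelihood test of edgeR 4.0.16 in R 4.3.3. A call is an adjusted p (Benjamini-Hochberg, over 17909 genes) under 0.05. The SE is the absolute log2 fold change over the square root of F. RPKM used the exon length of GENCODE M21 on the build of the files, and positions are from RefSeq. Likeness was taken on log2 CPM (prior count 2), without predicted genes. The scripts were tested on simulated data. Precision is limited by 3 libraries per group, and amplified reads are not independent molecules.

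The members, lists and rules were chosen with earlier results of these data known. Named were all members, at most the 2 smallest p per pathway list and direction, of which part is given, and the 5 genes most like Gng4. Gdf10, Bscl2, Xist, Ddx3y and the markers were added as checks, and Gnb1 in the stroke comparisons was named after its values were seen. Alternatives were other size factors, no filter, DESeq2 1.42.0, a fit of 2 groups, a replicate block, each library left out, and Rn45s class as a term.

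Same-numbered libraries were checked for shared deviations from the group means. The correlations were 0.0642, -0.191 and -0.336 between siRNA-labelled stroke and adult control and 0.160, 0.0136 and 0.153 between stroke and P4, so the numbers were not taken as pairs.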

Additional observations from a re-analysis of the deposited data

How the results depend on the processing

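Counts of paralogs called were 0 in the 3 comparisons without P4 under every alternative run. The share of all genes called was not counted for the alternatives, so changes in these counts are not read as results about the family. Between P4 and adult control the count was 7, and 4 in a fit of only the 2 groups, with a range of 4 to 7 when 1 library was left out. Between stroke and P4 the count was 5, and 7 in a fit of only the 2 groups, with a range of 3 to 5 when 1 library was left out. Between siRNA-labelled stroke and P4 it was 5, and 6 in a fit of only the 2 groups, with DESeq2 and with Rn45s class as a term, with a range of 4 to 6 when 1 library was left out. With a replicate block on the library numbers, which do not pair the samples, the count was 4 between stroke and P4, where Gng3 was lost (adjusted p = 0.0931), and 0 between siRNA-labelled stroke and adult control, where Gng5 turned to 0.29.

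Reversals were in values that did not pass the test. With Rn45s class as a term, a choice made after seeing the data, log2 fold changes in siRNA-labelled stroke against stroke were -0.31 for Gng2, -1.06 for Gng5, 0.68 for Gng7, -0.48 for Gng10 and 0.28 for Gng11. In stroke against adult control they were 0.75 for Gng5 and -0.055 for Gng11, in P4 against adult control 0.42 for Gng7, and in stroke against P4 -0.033 for Gng7. With 1 library left out, ranges in siRNA-labelled stroke against stroke were -0.16 to 0.50 for Gng2, -0.015 to 0.73 for Gng5, -0.40 to 0.41 for Gng10 and -0.48 to 0.12 for Gng11. In stroke against adult control the range was -1.41 to 0.84 for Gng5. In siRNA-labelled stroke against adult control it was -1.02 to 1.22 for Gng5, -0.19 to 0.22 for Gng8 and -0.10 to 0.51 for Gng11, and in P4 against adult control -1.14 to 0.67 for Gng7. The cause was not tested. Over all member values and alternatives, 25 reversed, 26 lost a call, 7 gained one and 554 counted as kept. Kept means the same direction and call. For Gng4 where no test is given, it means the same direction and a shift smaller than its SD within the groups compared. Depth limits Gng8 and Gng11 in P4, Gng13 throughout and, of the partners and effectors, Gna14 in stroke.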
